A study of Mus musculus with 7 samples.

Results

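Expression of 10 genes of the Nodal signalling pathway was examined in the inner cell mass (ICM) of mouse blastocysts after 4 h of 4-hydroxytamoxifen, given to induce ERK signalling. The genes were chosen by symbol, as the core of the pathway and the proteases that process its ligand, and all 10 were found among the 52636 genes of the count table. They are the ligands Nodal and Gdf3, the secreted inhibitors Lefty1 and Lefty2, the co-receptor Tdgf1, the receptors Acvr1b and Acvr2b, the effector Smad2, and the proprotein convertases Furin and Pcsk6.

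All embryos were Sox2Cre;CRAFR26, so that a Cre under the Sox2 driver acted with a cRAF construct that 4-hydroxytamoxifen (called tamoxifen here) switches on. They were flushed at embryonic day 2.5 and kept for 24 h in KSOM medium. Both groups received 250 nM PD173074 there, which blocks FGF receptors. The tamoxifen group was given 250 nM tamoxifen for 4 h, and the vehicle group was given ethanol and carries the time label 0 h. For each library 10 ICMs were pooled after immunosurgery, which is meant to remove the trophectoderm, and 2 ng of their RNA was used. The labels call this material epiblast of embryonic day 3.5. There were 3 vehicle libraries (clone4_1, clone4_2 and clone8_1) and 4 tamoxifen libraries (clone4_1, clone4_2, clone8_1 and clone8_2), named by biological clone (4 or 8) and replicate number; the mice descend from targeted embryonic stem cells injected into morulas. Clone 8 therefore had 1 vehicle library, after a 0 h sample was dropped at quality control.

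Nodal is a ligand of the TGF-beta family that is made as a precursor and cut by convertases such as Furin and Pcsk6, which act in the cell that makes it or in its neighbours. The mature ligand binds a complex of Acvr1b and Acvr2b that needs Tdgf1 (also called Cripto) as a co-receptor, and the receptor phosphorylates Smad2, which enters the nucleus with Smad4 and partners such as Foxh1. Lefty1 and Lefty2 are targets of the pathway that block it outside the cell, and Gdf3 is a related ligand that uses the same co-receptor. In the mouse the pathway is best known for keeping the epiblast after implantation pluripotent and for setting the body axes.

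Total counts ranged from 22981498 to 42294719 per library. Levels are given as CPM, the counts relative to library size after scaling with TMM factors, and 3 counts correspond to between 0.0710 and 0.129 CPM. The naive epiblast markers were present, with Nanog at 427.5 to 704.5 CPM in vehicle libraries, and 9 of the 10 listed genes could be tested. Markers of trophectoderm were also abundant despite immunosurgery, at a summed 8530 to 11228 CPM (vehicle) and 6546 to 9534 CPM (tamoxifen) over 10 genes, led by Krt8 and Krt18. The summed primitive endoderm markers lay between 845 and 1148 CPM in the vehicle group and 884 and 1031 CPM in the tamoxifen group, and the naive epiblast sum lay between 1665 and 2199 CPM over all libraries. Among 6 markers of cumulus and oviduct cells, Cyp19a1 and Fshr had 0 counts throughout, and Foxj1 and Pax8 stayed at or below 5 counts. The other 2 were detected in every library, Amhr2 with 310 to 823 counts and Ovgp1 with 6 to 45 counts. Vehicle clone8_1 was short of transcripts under 1000 nt, with a median deviation of -1.29 (log2) from the median library over 1164 protein-coding genes, against -0.038 to 0.22 in the other 6. From 1500 to under 5000 nt, the range that holds the typical transcript length of all members (1620 to 4418 nt), its deviation was 0.033. The longest transcripts of Smad2 (8089 nt) and Furin (5736 nt) lie above that range, where no deviation is given.

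In these libraries the genes that receive the signal were expressed far above the ligand Nodal and its inhibitors. Markers of trophectoderm were abundant in the same libraries, so the levels cannot be assigned to a cell type. Per kb of transcript, Tdgf1 stood highest in vehicle libraries at 190 ± 34.1 CPM per kb (SD, n = 3), above 96.1% of 16229 tested genes. Smad2 followed at 37.0 ± 5.58 and Gdf3 at 29.5 ± 2.85 CPM per kb, with overlapping ranges. Pcsk6 was next at 12.5 ± 0.754, then Furin at 7.41 ± 0.823 CPM per kb, each apart from its neighbours in the order. Acvr2b (4.76 ± 1.06) and Acvr1b (4.01 ± 1.03 CPM per kb) overlapped each other and lay near the median of tested genes, 3.70 CPM per kb. Lefty1, Nodal and Lefty2 came last at 0.189 ± 0.175, 0.188 ± 0.243 and 0.105 ± 0.150 CPM per kb and could not be ordered among themselves. The order of the middle genes depends on the length used: per kb of its longest transcript (8089 nt in place of a typical 2027.5 nt), Smad2 was at 9.27 CPM per kb, below Gdf3 and Pcsk6, while Tdgf1 kept rank 1 and the same 3 genes kept the last places.

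**Figure D1:**
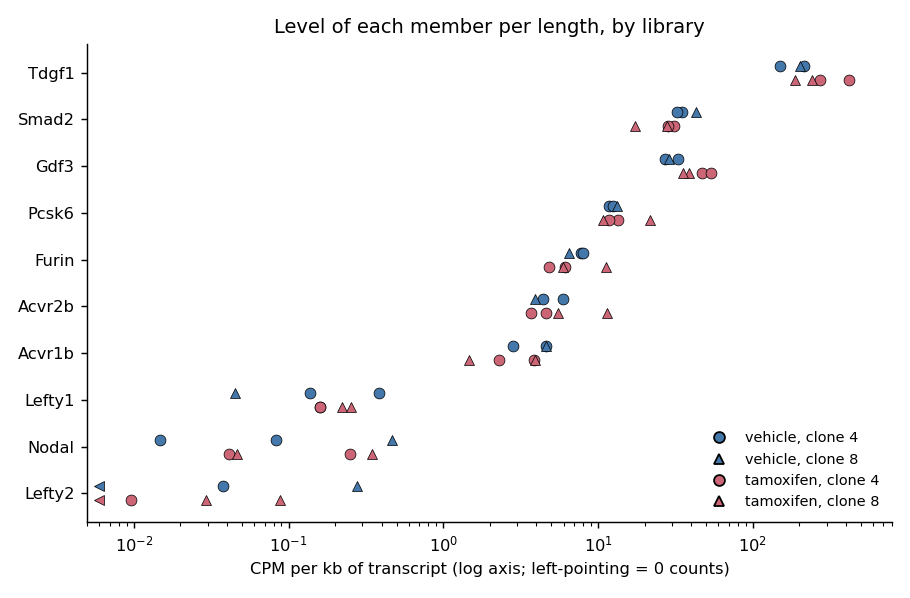
Level of each member in every library, in CPM per kb of transcript on a log axis, with vehicle libraries in blue, tamoxifen libraries in red, circles for clone 4 and triangles for clone 8. Tdgf1 lies highest and Nodal, Lefty1 and Lefty2 lie lowest in all 7 libraries, and arrows at the left edge stand for the 2 libraries with 0 counts of Lefty2.

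The promoters of the ligand Nodal and of the co-receptor Tdgf1 are shown because these genes share a pathway and stand near opposite ends of the order of levels. The windows run from 250 bases before to 50 bases after the RefSeq start (GRCm38.p6). Nodal lies at chr10:61417722-61418021 on the plus strand and Tdgf1 at chr9:110946109-110946408 on the minus strand, and both are written 5′ to 3′ along the gene with matches to the SMAD box (CAGAC or its reverse complement GTCTG) in capitals.
Nodal promoter: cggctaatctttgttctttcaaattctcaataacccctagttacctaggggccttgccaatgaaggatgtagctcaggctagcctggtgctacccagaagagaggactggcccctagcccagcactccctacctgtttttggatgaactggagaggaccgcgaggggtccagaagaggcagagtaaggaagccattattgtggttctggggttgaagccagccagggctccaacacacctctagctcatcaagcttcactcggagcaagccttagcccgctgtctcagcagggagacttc
Tdgf1 promoter: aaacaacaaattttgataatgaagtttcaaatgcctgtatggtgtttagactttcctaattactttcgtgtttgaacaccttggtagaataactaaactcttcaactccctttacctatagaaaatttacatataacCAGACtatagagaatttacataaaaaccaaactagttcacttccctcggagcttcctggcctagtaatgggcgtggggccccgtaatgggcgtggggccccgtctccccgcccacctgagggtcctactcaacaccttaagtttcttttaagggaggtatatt

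The Tdgf1 window held 1 match to the SMAD box and the Nodal window held 0, where 49.6% of 32851 mouse promoters of this length hold at least 1 on either strand. Neither window matched the FOXH1 core AATNCACA (3.60% of promoters) or the ETS core CCGGAAG (8.86% of promoters), also searched on both strands. Overlapping matches of the same motif were counted separately. The windows held 5 CpG in Nodal and 7 in Tdgf1, against 7 in the median promoter. Other members had up to 52 CpG (Pcsk6), and the 2 windows of Furin had 51 and 7. RefSeq windows were matched for 6 of the 10 members, and no window is shown for Gdf3, Lefty1, Lefty2 and Smad2. A match to these letters is a description of the sequence, and binding was not measured.

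Tamoxifen libraries were compared with vehicle libraries over 16248 genes, of which 9 members were part. All embryos carried the cRAF construct, so effects of the construct and of tamoxifen itself cannot be told apart. Lefty2 did not pass the filter on low counts. No member passed at an adjusted p under 0.05, as was so for 0% of all genes tested (edgeR, quasi-likelihood test, p-values adjusted after Benjamini and Hochberg). DESeq2 called 4 of all genes (0.0246%) and no member. At an unadjusted p under 0.05 there were 2 members, Gdf3 (higher) and Smad2 (lower), out of 9, against 5.97% of all tested genes (2.69% higher and 3.28% lower). The same 2 genes were those without overlap between the groups in CPM, which was so in 8.45% of all genes (3.71% higher and 4.74% lower with tamoxifen). Among the tested members 5 of 9 had a fold change above 0, against 51.7% of all genes, and the median log2 fold change was 0.090 over the members and 0.019 over all genes. The libraries within a group are separate pools of ICMs, but the labels do not say whether they come from separate litters, so the p-values measure the spread between these pools.

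**Figure D2:**
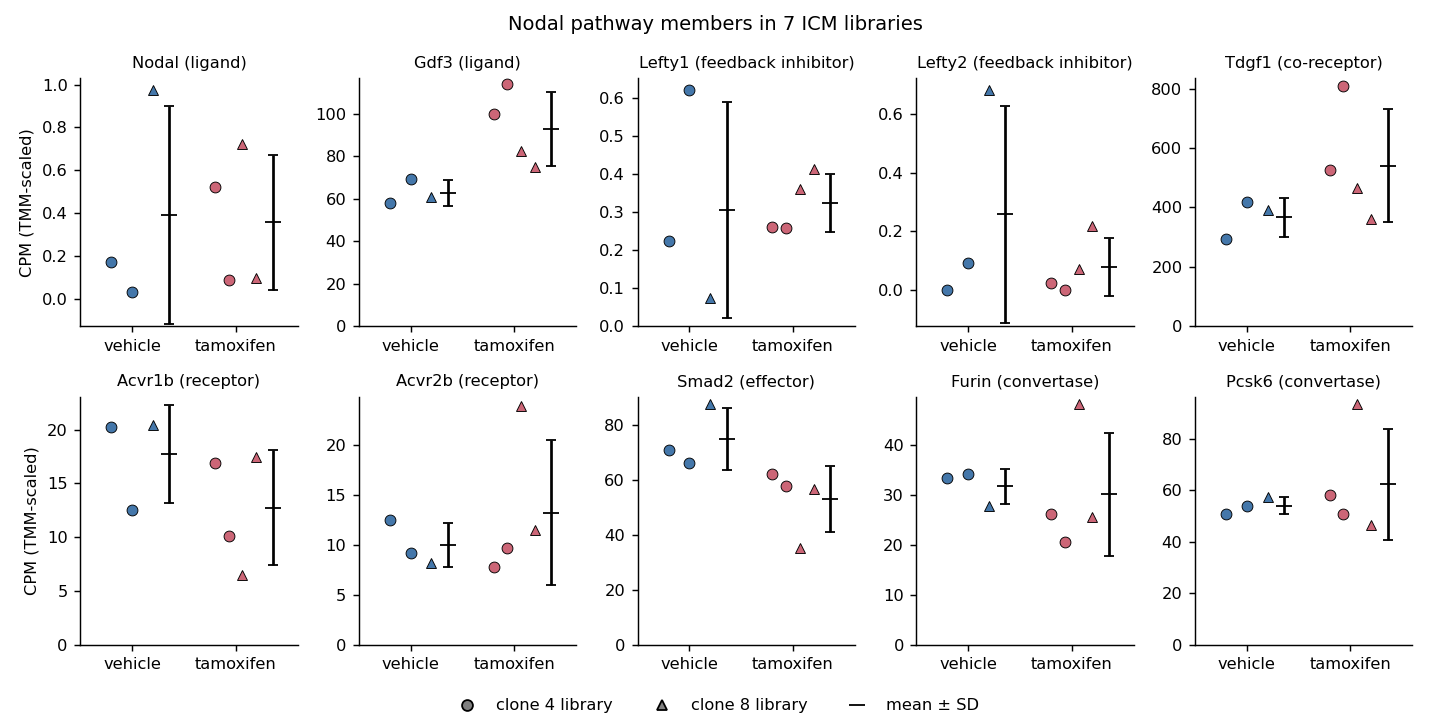
CPM of each of the 10 members in every library, with vehicle in blue, tamoxifen in red, circles for clone 4, triangles for clone 8 and bars for the mean ± SD of 3 vehicle and 4 tamoxifen libraries. Each panel has its own linear axis; only for Gdf3 (higher) and Smad2 (lower) are the tamoxifen points apart from all vehicle points.

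Nodal itself was barely detected. Nodal (ENSMUSG00000037171, GRCm38 chromosome 10, 61417972 to 61425338, plus strand) had 7, 1 and 40 counts in vehicle clone4_1, clone4_2 and clone8_1. In tamoxifen libraries it had 22 in clone4_1, 2 in clone4_2, 20 in clone8_1 and 4 in clone8_2. These counts are 0.174, 0.0311 and 0.97 CPM in vehicle and 0.521, 0.0862, 0.722 and 0.0971 CPM in tamoxifen libraries. Both libraries numbered clone8_1 and tamoxifen clone4_1 were high and the other 4 low, in both conditions. The spread exceeded counting error: the exact Poisson 95% interval was 0.696 to 1.33 CPM in vehicle clone8_1 and 0.000788 to 0.174 CPM in vehicle clone4_2. Such intervals cover counting error only, since amplified reads without molecular identifiers are not independent molecules. The groups differed by a log2 fold change of -0.15 ± 1.18 (SE), with a 95% interval from -2.77 to 2.48 (adjusted p = 0.984, edgeR). The estimate was 1.73 without vehicle clone8_1, and it was also above 0 without tamoxifen clone4_2 (0.14) or clone8_2 (0.18), so its sign rests on single libraries.

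Lefty1 and Lefty2, the feedback inhibitors that Nodal signalling switches on, were as scarce. Both lie on chromosome 1 (Lefty1, ENSMUSG00000038793, 180935022 to 180938400; Lefty2, ENSMUSG00000066652, 180893108 to 180899103; both plus strand). Lefty1 had 9, 20 and 3 counts in vehicle clone4_1, clone4_2 and clone8_1, and 11, 6, 10 and 17 in tamoxifen clone4_1, clone4_2, clone8_1 and clone8_2. In CPM this was 0.306 ± 0.284 (SD, n = 3) and 0.323 ± 0.0765 (SD, n = 4), with the tamoxifen values inside the vehicle range. The log2 fold change of 0.090 ± 0.90 (SE) had a 95% interval from -1.92 to 2.10 (adjusted p = 0.988, edgeR), and without vehicle clone8_1 it was -0.38.

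Lefty2 had 0, 3 and 28 counts in the vehicle libraries, in the same order, and 1, 0, 2 and 9 in the tamoxifen libraries. Most of its counts therefore came from vehicle clone8_1, the library with the most Nodal and the least Lefty1. Taken as 3 counts, the limit that a count of 0 allows was 0.0744 CPM in vehicle clone4_1 and 0.129 CPM in tamoxifen clone4_2, and the upper bounds of the exact Poisson 95% interval were 0.0915 and 0.159 CPM. Of the 50-base stretches of the longest Lefty1 transcript, 17.9% also occur in Lefty2, and 11.6% of those of Lefty2 occur in another gene's transcripts, so reads there could have been divided or dropped in counting. The sum of both genes, which a division between them does not alter, was 9 to 31 counts in the vehicle group and 6 to 26 counts in the tamoxifen group. These sums were not scaled to library size. The lowest, 6 counts, came from tamoxifen clone4_2, the library with the fewest total counts.

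The pattern of Nodal over the libraries was compared with that of every other tested gene that varied by at least 0.5 times its SD, 5783 genes in all. Rsph1, 4930516B21Rik and 9630013D21Rik were closest, with mean absolute differences of 0.39, 0.44 and 0.46 in log2 CPM, each gene centred on its mean over the 7 libraries. Rsph1, which encodes a protein of motile cilia, ranged from 0.0311 to 0.722 CPM and was as scarce as Nodal. These genes are a description of 7 libraries near the counting floor and were not tested.

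Gdf3, the other ligand, was present at a level unlike that of Nodal. Gdf3 (ENSMUSG00000030117, chromosome 6, 122605403 to 122610087, minus strand) had 57.8, 69.5 and 60.9 CPM in vehicle clone4_1, clone4_2 and clone8_1. With tamoxifen it had 100.01 in clone4_1, 113.8 in clone4_2, 82.4 in clone8_1 and 75.0 CPM in clone8_2. The 4 tamoxifen values were all above the 3 vehicle values, and the clone 4 libraries lay highest. The means were 62.7 ± 6.06 CPM (SD, n = 3) and 92.8 ± 17.5 CPM (SD, n = 4). The difference was 1.48-fold, a log2 fold change of 0.57 ± 0.19 (SE) with a 95% interval from 0.15 to 0.98 (unadjusted p = 0.0129, adjusted p = 0.794, edgeR). It did not pass the adjusted threshold. Over the 14 alternatives the log2 fold change ranged from 0.44 to 0.74, and the unadjusted p was under 0.05 in 13 of them, the exception being without vehicle clone4_1 (0.0515, edgeR). Gdf3 had between 2231 and 4223 counts per library, where Nodal had between 1 and 40.

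Tdgf1, the co-receptor of both ligands, was the most abundant member. Tdgf1 (ENSMUSG00000032494, chromosome 9, 110939603 to 110946158, minus strand) had 292, 417 and 390 CPM in vehicle clone4_1, clone4_2 and clone8_1. After tamoxifen the values were 527 in clone4_1, 809 in clone4_2, 464 in clone8_1 and 362 CPM in clone8_2. The groups overlapped through tamoxifen clone8_2, and tamoxifen clone4_2 was the highest of all libraries. The vehicle mean was 366 ± 65.9 CPM (SD, n = 3) and the tamoxifen mean 540 ± 191 CPM (SD, n = 4). On the log2 scale the difference was 0.56 ± 0.26 (SE) with a 95% interval from -0.029 to 1.15 (unadjusted p = 0.0600, adjusted p = 0.794, edgeR). Without tamoxifen clone4_2 it was 0.29, and over all 14 alternatives it stayed above 0. Another annotated gene, Tdgf1-ps1, shares 12.5% of the 50-base stretches of the Tdgf1 transcript, so reads there could have been divided or dropped in counting. Tdgf1 exceeded Gdf3 per kb by a factor between 5.30 and 7.82 in every library, in overlapping ranges for the groups (5.55 to 7.04 in vehicle and 5.30 to 7.82 with tamoxifen).

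Clone 4, the clone with 2 libraries per condition, was also fitted alone. There the log2 fold change was 0.74 ± 0.18 (SE) for Gdf3 and 0.91 ± 0.25 (SE) for Tdgf1. With Furin these were the 3 of 7 tested members at an unadjusted p under 0.05 in clone 4, against 7.87% of 16060 genes, and no member was called at an adjusted p under 0.05, as was so for 0% of the genes (edgeR; adjusted p = 0.550 for both Gdf3 and Tdgf1). DESeq2 on the same 4 libraries called Gdf3 (adjusted p = 0.0325) and Tdgf1 (adjusted p = 0.0171), as did edgeR without a filter on low counts and edgeR without vehicle clone4_2. These fits called 0.884%, 0.827% and 1.78% of their genes. In clone 8 the single vehicle library had 60.9 CPM of Gdf3 against 82.4 and 75.0 CPM with tamoxifen, and 390 CPM of Tdgf1 against 464 and 362 CPM.

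Cell type markers were tested in the comparison of all 7 libraries. All 10 trophectoderm markers had a log2 fold change below 0 (median -0.33), and 0 were called at an adjusted p under 0.05 (edgeR). Of 9 naive epiblast markers 7 were above 0, with a median of 0.37 and 0 called (edgeR). Nanog (-0.16) and Tfcp2l1 (-0.11) were below 0. The summed naive markers overlapped between the groups, at 1665 to 2044 CPM in vehicle and 1708 to 2199 CPM in tamoxifen libraries. The general pluripotency markers Pou5f1 and Sox2 were at -0.13 and 0.45. Of 7 tested formative epiblast markers 4 were above 0, with a median of 0.12 and 0 called (edgeR). Dnmt3b (-0.54, unadjusted p = 0.0227, edgeR) was lower without overlap. Of 9 primitive endoderm markers 6 were above 0, with a median of 0.49 and 0 called (edgeR). Of these, Sox17 (log2 fold change 2.58, unadjusted p = 0.00617, edgeR) and Lama1 (1.35, unadjusted p = 0.00394, edgeR) were higher without overlap between the groups. Pdgfra (-0.50), Dab2 (-0.21) and Fgfr2 (-0.067) were below 0. Among the trophectoderm markers Gata3 (-0.47, unadjusted p = 0.00803, edgeR) and Elf3 (-0.53, unadjusted p = 0.0125, edgeR) were lower without overlap. Of all tested genes 8.45% did not overlap, 3.71% higher and 4.74% lower. In clone 4 the summed trophectoderm markers were 11228 and 8530 CPM in vehicle and 7938 and 6565 CPM in tamoxifen libraries, and the library with the least of these 4, tamoxifen clone4_2, had the most Gdf3 and Tdgf1. Tamoxifen clone8_2 had as low a sum (6546 CPM, the lowest of the 7) but the least Gdf3 and Tdgf1 of the tamoxifen libraries. In bulk libraries fewer cells of a type and less RNA per cell cannot be told apart. The part of these marker levels in the values of Gdf3 and Tdgf1 was not tested.

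**Figure D3:**
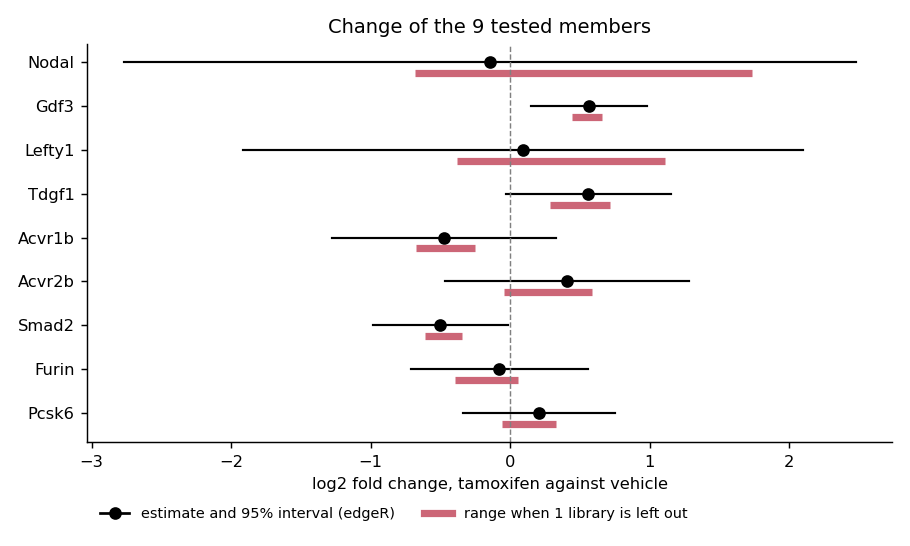
Log2 fold change of the 9 tested members, tamoxifen against vehicle, with its 95% interval from edgeR (black) and the range of estimates when each library in turn was left out (red). Nodal was not tested without tamoxifen clone4_1 or without tamoxifen clone8_1, nor Lefty1 without tamoxifen clone8_2, so their red ranges lack these fits. Gdf3 and Tdgf1 lie above 0 and Smad2 and Acvr1b below 0 over their whole red ranges, while those of Nodal, Lefty1, Acvr2b, Furin and Pcsk6 cross 0.

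The receptors showed no common direction. Acvr1b, the activin receptor that phosphorylates Smad2 (ENSMUSG00000000532, chromosome 15, 101174067 to 101213684, plus strand), had 20.3, 12.5 and 20.4 CPM in vehicle clone4_1, clone4_2 and clone8_1. With tamoxifen it had 16.9 in clone4_1, 10.1 in clone4_2, 6.46 in clone8_1 and 17.4 CPM in clone8_2. The groups overlapped, and in each condition 1 or 2 libraries were low. The log2 fold change was -0.48 ± 0.36 (SE), with a 95% interval from -1.28 to 0.33 (adjusted p = 0.804, edgeR). It was -0.26 without tamoxifen clone8_1 and -0.15 without both libraries numbered clone8_1.

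Acvr2b, the partner that binds ligand and activates Acvr1b (ENSMUSG00000061393, chromosome 9, 119402118 to 119434995, plus strand), had 12.5, 9.22 and 8.21 CPM in the vehicle libraries. After tamoxifen the values were 7.77 in clone4_1, 9.70 in clone4_2, 23.9 in clone8_1 and 11.5 CPM in clone8_2. Tamoxifen clone8_1 stood alone, and the other 6 libraries lay between 7.77 and 12.5 CPM. The log2 fold change of 0.41 ± 0.39 (SE), with a 95% interval from -0.46 to 1.28 (adjusted p = 0.838, edgeR), was -0.043 without that library.

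Smad2, which carries the signal to the nucleus, had a lower value in each tamoxifen library than in any vehicle library. Smad2 (ENSMUSG00000024563, chromosome 18, 76241580 to 76310963, plus strand) had 71.0, 66.1 and 87.7 CPM in vehicle clone4_1, clone4_2 and clone8_1. With tamoxifen it had 62.4 in clone4_1, 57.7 in clone4_2, 35.3 in clone8_1 and 56.6 CPM in clone8_2. The groups did not overlap, though the highest tamoxifen library was close to the lowest vehicle library. The vehicle mean was 75.0 ± 11.3 CPM (SD, n = 3) and the tamoxifen mean 53.0 ± 12.1 CPM (SD, n = 4). On the log2 scale the difference was -0.50 ± 0.22 (SE) with a 95% interval from -0.98 to -0.016 (unadjusted p = 0.0443, adjusted p = 0.794, edgeR). It did not pass the adjusted threshold. The size rests largely on the libraries numbered clone8_1, the highest and the lowest of the 7. It was -0.38 without vehicle clone8_1, -0.35 without tamoxifen clone8_1 and -0.22 without both, and within clone 4 it was -0.20 ± 0.17 (SE).

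Both convertases were expressed, Pcsk6 above Furin. Furin, a convertase of the secretory pathway found in most cells (ENSMUSG00000030530, chromosome 7, 80388585 to 80405436, minus strand), had 33.4, 34.2 and 27.7 CPM in vehicle clone4_1, clone4_2 and clone8_1. After tamoxifen the values were 26.1 in clone4_1, 20.6 in clone4_2, 48.2 in clone8_1 and 25.5 CPM in clone8_2. Of the tamoxifen libraries 3 of 4 lay below all vehicle libraries, and clone8_1 lay above them. The log2 fold change was -0.077 ± 0.28 (SE), with a 95% interval from -0.71 to 0.56 (adjusted p = 0.959, edgeR). Without tamoxifen clone8_1 it was -0.40 (unadjusted p = 0.0719, edgeR), and without both libraries numbered clone8_1 it was -0.49 (unadjusted p = 0.0361, adjusted p = 0.669, edgeR).

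Pcsk6, also called PACE4, is a secreted convertase (ENSMUSG00000030513, chromosome 7, 65861734 to 66050386, plus strand). It had 50.9, 53.9 and 57.4 CPM in the vehicle libraries and 58.1, 51.0, 93.8 and 46.6 CPM in tamoxifen clone4_1, clone4_2, clone8_1 and clone8_2. Apart from tamoxifen clone8_1 all libraries lay between 46.6 and 58.1 CPM. The log2 fold change of 0.21 ± 0.24 (SE), with a 95% interval from -0.34 to 0.75 (adjusted p = 0.864, edgeR), was -0.057 without that library. Pcsk6 exceeded Furin per kb in every library, by a factor of 1.51 to 2.06 in the vehicle group and of 1.82 to 2.46 in the tamoxifen group. Gm45213, an overlapping gene on the same strand, shares 2.46% of the 50-base stretches of the Pcsk6 transcript.

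Tamoxifen clone8_1 was thus the highest of 7 libraries for Acvr2b, Furin and Pcsk6 and the lowest for Acvr1b and Smad2. Vehicle clone8_1 was the highest for Nodal, Lefty2, Acvr1b and Smad2 and the lowest for Lefty1, so that each of these 2 libraries held 5 extremes over the 10 members. Tamoxifen clone8_1 also had the highest trophectoderm sum among the tamoxifen libraries (9534 CPM) and the lowest naive epiblast sum (1708 CPM). The part of these marker levels in the values of the 5 genes was not tested. Whether the response of a member differed between clones was tested as an interaction of clone and condition, which rests on vehicle clone8_1 as the only vehicle library of clone 8. No member was called at an adjusted p under 0.05, against 3.16% of all genes, and 0 of 9 had an unadjusted p under 0.05, against 14.8% (edgeR). DESeq2 also called none, against 6.25% of all genes, with Tdgf1 and Acvr2b at an unadjusted p under 0.05, against 16% of all genes. In edgeR the smallest adjusted p-values among the members were those of Acvr2b, with a difference in log2 fold change of 1.42 ± 0.67 (SE; adjusted p = 0.369), and Tdgf1, at -0.83 ± 0.40 (SE; adjusted p = 0.379), clone 8 minus clone 4. Of all genes edgeR called 514 for the interaction, 510 of them with a difference above 0. Vehicle clone8_1 was short of transcripts under 1000 nt, whereas the typical transcripts of the members have 1620 nt or more. The shares over all genes are therefore not a like background for the members. The part of this shortage in the calls was not tested.

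The rest of the pathway was examined in 44 genes listed by role. Of these 28 could be tested, 18 with a log2 fold change above 0 and 10 below, against 51.7% of all genes above 0. The median was 0.10, against 0.019 over all genes. None was called at an adjusted p under 0.05 (edgeR and DESeq2). At an unadjusted p under 0.05 (edgeR) there were 2 of 28, Gsc and Drap1, both higher. This was so for 5.97% of all genes, 2.69% higher and 3.28% lower. The groups did not overlap in 2 higher genes and 1 lower gene of the 28, against 8.45% of all genes, a similar share.

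Other ligands were scarce. Of 6 listed, Inhbb, a subunit of activin B, was the one tested, at 1.25 ± 0.890 CPM (vehicle mean ± SD, n = 3) and 1.74 ± 0.924 CPM (tamoxifen, n = 4). Inhba, Inha, Tgfb1 and Tgfb2 had at most 16 counts in any library, and Gdf1 had 0 counts in every library. In the annotation Gdf1 lies within Cers1 on the same strand, so its reads could have been counted there or dropped. Among 5 inhibitors outside the cell, Cer1 and Fst were not tested, and Tmeff1, Dand5 and Fstl3 were, with log2 fold changes from 0.12 to 0.43. Fstl3, a binder of activin, was the highest of them at 17.0 ± 2.24 CPM (SD, n = 3) in vehicle libraries. Dand5, an antagonist of Nodal in the later node, had 3.96 ± 0.666 CPM (vehicle mean ± SD, n = 3) and 5.02 ± 1.56 CPM (tamoxifen, n = 4). Tmeff1, a membrane protein that binds the co-receptor, had 7.13 ± 3.52 and 9.64 ± 3.5 CPM.

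Of 6 other receptors, 5 were tested and 4 of them were below 0, where 51.7% of all genes were above 0. Acvr1c was not tested. Acvr2a, the close relative of Acvr2b, had 24.6, 23.1 and 26.5 CPM in vehicle clone4_1, clone4_2 and clone8_1. With tamoxifen it had 15.5 in clone4_1, 16.4 in clone4_2, 7.69 in clone8_1 and 23.04 CPM in clone8_2. The groups did not overlap, by a narrow margin in clone8_2, and the log2 fold change was -0.66 ± 0.32 (SE; unadjusted p = 0.0663, adjusted p = 0.794, edgeR). It was -0.43 without tamoxifen clone8_1 and -0.90 without tamoxifen clone8_2 (unadjusted p = 0.0180, edgeR). Acvr2a was low and Acvr2b high in tamoxifen clone8_1. Tgfbr1, the TGF-beta receptor, had a log2 fold change of -0.23 ± 0.26 (SE), and Cfc1, the relative of Tdgf1, had 0.73 ± 0.61 (SE) at 1.51 ± 0.918 CPM (SD, n = 3) in vehicle libraries.

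All 13 partners and repressors inside the cell could be tested, 10 above 0 and 3 below, against 51.7% of all genes above 0. Their median log2 fold change was 0.077. Tgif1, a repressor of SMAD targets, was the highest of them per length and had 117 ± 13.1 CPM (vehicle mean ± SD, n = 3) and 134 ± 25.2 CPM (tamoxifen, n = 4), followed by the inhibitory Smad7 at 41.0 ± 5.27 and 33.6 ± 12.0 CPM. Drap1, a co-repressor that limits Nodal signalling through Foxh1, had 5.58, 2.24 and 2.14 CPM in vehicle clone4_1, clone4_2 and clone8_1. After tamoxifen the values were 7.22 in clone4_1, 5.99 in clone4_2, 13.7 in clone8_1 and 6.17 CPM in clone8_2. Each tamoxifen value exceeded every vehicle value, and the log2 fold change was 1.31 ± 0.47 (SE; unadjusted p = 0.0188, adjusted p = 0.794, edgeR). Its typical transcript of 0.744 kb falls in the length range that was depleted in vehicle clone8_1, and without that library the log2 fold change was 1.06 (unadjusted p = 0.0602, edgeR). It was 0.96 without tamoxifen clone8_1 (unadjusted p = 0.0600, edgeR) and 0.72 without both (unadjusted p = 0.135, edgeR). Smurf1, a ubiquitin ligase that acts on SMADs, differed by 0.67 ± 0.39 (SE) on the log2 scale (unadjusted p = 0.115, edgeR), by 0.36 without tamoxifen clone8_1 and by 0.91 without tamoxifen clone8_2 (unadjusted p = 0.0174, edgeR). Smad7 had a log2 fold change of -0.29 ± 0.26 (SE), which was -0.56 without tamoxifen clone8_1 (unadjusted p = 0.0139, edgeR).

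Among the other convertases and proteases, Pcsk7 and Mbtps1 were tested, and Pcsk1, Pcsk2, Pcsk4 and Pcsk5 did not pass the filter on low counts. Pcsk7, a convertase of the secretory pathway, had 37.7 ± 0.0790 CPM (vehicle mean ± SD, n = 3) and 42.7 ± 6.08 CPM (tamoxifen, n = 4), and Mbtps1, a protease of the Golgi, had 84.1 ± 9.25 and 79.0 ± 17.7 CPM. Per kb in vehicle libraries Mbtps1 was at 19.7 and Pcsk7 at 10.1 CPM per kb, so that Pcsk6 at 12.5 lay between them.

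Of 7 targets in the embryo, 4 were tested. Gsc, a homeobox gene of the organizer that Nodal signalling activates, had 8.39, 7.07 and 9.65 CPM in vehicle clone4_1, clone4_2 and clone8_1. With tamoxifen it had 13.2 in clone4_1, 15.6 in clone4_2, 20.4 in clone8_1 and 12.4 CPM in clone8_2. Each tamoxifen value exceeded every vehicle value, in both clones. The vehicle mean was 8.37 ± 1.29 CPM (SD, n = 3) and the tamoxifen mean 15.4 ± 3.60 CPM (SD, n = 4). On the log2 scale the difference was 0.88 ± 0.27 (SE; unadjusted p = 0.00823, adjusted p = 0.794, edgeR), which did not pass the adjusted threshold. It ranged from 0.71 to 0.98 over the 14 alternatives, with an unadjusted p under 0.05 in all 14. Eomes, which trophectoderm also expresses, had 28.9 ± 5.01 and 22.7 ± 3.87 CPM (log2 fold change -0.35 ± 0.21, SE). T, Foxa2 and Lhx1, which mark the primitive streak and its derivatives, had at most 7 counts in any library.

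**Figure D4:**
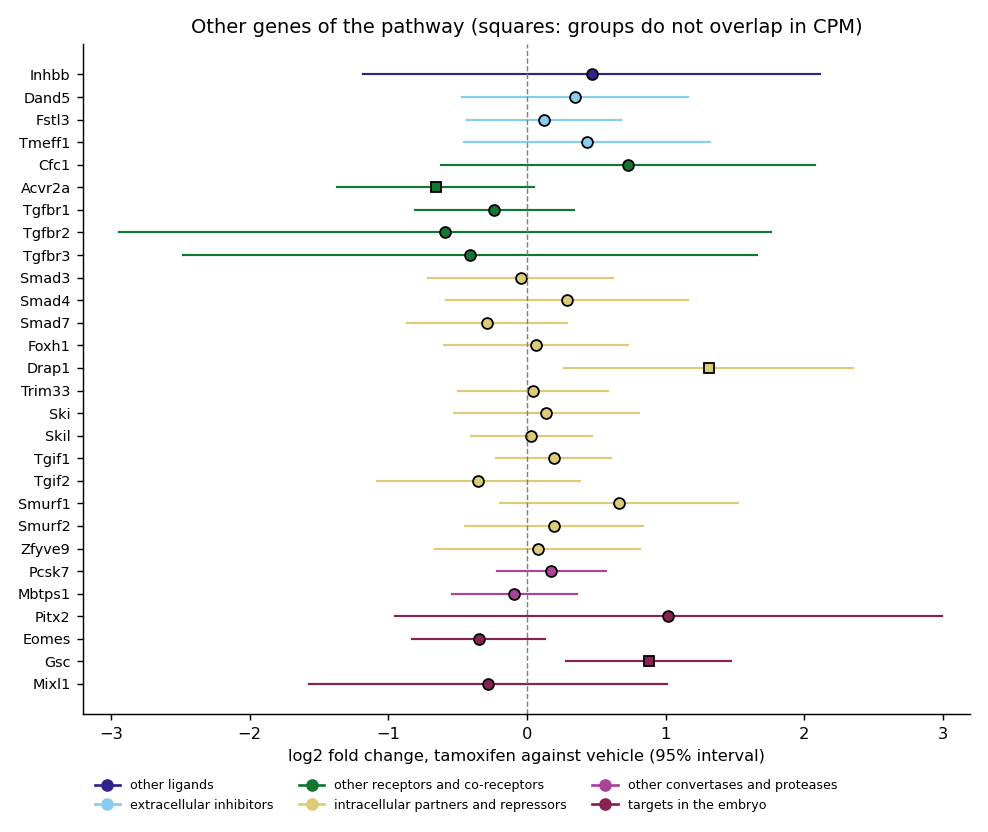
Log2 fold change, tamoxifen against vehicle, of the 28 tested genes of the wider pathway, coloured by role, with 95% intervals from edgeR; squares mark genes whose groups do not overlap in CPM. Gsc and Drap1 lie above 0 with intervals clear of 0, and Acvr2a is the square below 0.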

How the data were processed

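RNA-seq counts of 7 libraries were analysed. Values were deposited as whole-number counts for each Ensembl ID, without normalization. The submitters' processing notes name bcl2fastq 2.19.1, STAR 2.5.3a and the mm10 build; the counting program, annotation and strand setting are not given in the sources used here, so reads of overlapping or near-identical genes could have been divided. Of 52636 gene IDs, 52489 matched GENCODE M21 (GRCm38), which gave symbols, coordinates and lengths (median over basic transcripts). Counts were tested over all genes with edgeR 4.0.16 in R 4.3.3: TMM factors, filterByExpr by group, quasi-likelihood tests (condition alone in the model), and Benjamini-Hochberg adjustment over 16248 genes, with an adjusted p under 0.05 called. SE is the log2 fold change divided by the root of F. The alternatives were DESeq2 1.42.0, DESeq2's size factors in edgeR, no filter, clone as a term, a replicate block, and leaving out libraries. The fits were tested on simulated data. The likeness measure used log2 CPM with a prior count of 2. Members and lists were chosen with earlier results of these data known. In the wider list the text names, per role, up to 2 genes with the smallest unadjusted p and up to 2 with the highest mean CPM per kb in vehicle libraries; untested genes may be listed by name, and an item of the list is not reported here.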

Additional observations from a re-analysis of the deposited data

Results flagged for a closer look

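Drap1 in tamoxifen clone8_1 stood far from the other tamoxifen libraries, at 13.7 CPM against 5.99 to 7.22 CPM, a gap of 0.84 of the group's whole range. Among 31 genes and marker sums screened over the 4 tamoxifen libraries this was the only such value, and about 1 in 20 groups would be expected to show one.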

How the results depend on the processing

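No member and no gene of the wider list was called by edgeR or DESeq2 for tamoxifen against vehicle under any alternative run. Members at an unadjusted p under 0.05 numbered 2, moved to 1 with clone as a term, and ranged from 0 (without vehicle clone4_1) to 2 when 1 library was left out; they numbered 3 without a filter on low counts (Gdf3, Tdgf1 and Smad2) and 3 in clone 4 only (Gdf3, Tdgf1 and Furin). Within clone 4, Gdf3 and Tdgf1 were called (2 members) by DESeq2, without a filter on low counts, and without vehicle clone4_2, fits that called 142 of 16060, 217 of 26236 and 309 of 17370 genes; leaving out 1 library gave 0 to 2. In fits that leave 1 library in an arm, that library is assumed to vary like the others. No member or gene of the wider list was called for the interaction in any alternative run, and the interaction could not be fitted without vehicle clone8_1.

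The sign of Nodal turned to 0.25 with clone as a term, 0.75 with the replicate block, and ranged from -0.68 to 1.73 over the fits without 1 library (0.14 without tamoxifen clone4_2, 0.18 without tamoxifen clone8_2). Lefty1 ranged from -0.38 to 1.11 (-0.098 without vehicle clone4_1). Nodal did not pass the filter without tamoxifen clone4_1 or without tamoxifen clone8_1, nor Lefty1 without tamoxifen clone8_2, so these ranges lack those fits. With both libraries numbered clone8_1 left out, Lefty1 was -0.43, Acvr2b -0.17, Pcsk6 -0.018, Cfc1 -0.017 and Mbtps1 0.12. In clone 4 only, Acvr2b was -0.32, Dand5 -0.21, Cfc1 -0.013 and Mbtps1 0.21. Over the fits without 1 library, Acvr2b ranged from -0.043 to 0.58, Furin from -0.40 to 0.055, Pcsk6 from -0.057 to 0.33, Inhbb from -0.011 to 1.05, Fstl3 from -0.050 to 0.25 and Mbtps1 from -0.23 to 0.041. The cause was not tested. Deviations from the group means of same-numbered libraries correlated with r of 0.0078, 0.021 and -0.068 over 16248 genes, so the numbers were not taken to pair them. The replicate block (clone and number) changed no call and left Gdf3 at 0.65; within clone 4 it left 0 members called. The length of the longest transcript was tried for levels after the data were seen. Depth limits Nodal, Lefty1 and Lefty2 most, since 3 counts are up to 0.129 CPM.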
